A study of Mus musculus with 24 samples.

Results

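The eukaryotic translation initiation factors are the proteins that bring the initiator tRNA, the mRNA and the ribosomal subunits together before the first peptide bond is made. The genes of this family were taken by symbol, as all those beginning with Eif1 to Eif6, with the eIF2 kinases (Eif2ak) and the eIF4E-binding proteins (Eif4ebp) left out. This gave 49 of the 23787 genes with a symbol on the array, measured by 76 array probes. A filter on dim probes kept those that the scanner software marked as clearly brighter than background on 2 or more arrays of some group, and 47 of the 49 genes and 70 of the 76 probes passed it. Of the 49 genes, 46 were above background on all 24 arrays, Eif4e1b was above it on 23, and Eif2s3y and Eif4e3 were not tested.

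The cells were TM3, an established mouse Leydig cell line. They were suspended in cuvettes and given either a sham exposure or nanosecond pulsed electric fields (nsPEF) of 80 pulses of 60 ns at 5.5 kV and 14 kV/cm over 180 s. RNA was taken at 0 h, or after 4 h or 24 h back in culture, with 4 samples in each of the 6 groups. The comparisons asked how far nsPEF changed the transcriptome and how the cells, sham included, changed with time after handling. No genotype or drug differed between the groups. The sham cells went through harvest, suspension and replating as well, and no cells without this handling were measured here.

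Each sample was hybridised to a 1-colour microarray, and a level here is the log2 of the processed signal minus the 75th percentile of that array. Between 51.2% and 62.1% of the probes of an array were well above background, and the share was lower in each nsPEF group than in the sham group of the same time (52.6 to 57.0% against 57.5 to 59.6% at 0 h, 51.2 to 56.0% against 57.7 to 62.1% at 4 h, and 52.4 to 57.2% against 59.0 to 61.0% at 24 h). All 8 arrays of a time point lay on 1 slide, and effects of the slide cannot be told apart from those of time. On each slide, sham lay in row 1 of arrays and nsPEF in row 2, so treatment and slide row cannot be told apart either. Spots with uneven signal numbered 36 to 112 on sham arrays and 62 to 443 on nsPEF arrays, with the highest counts in nsPEF at 4 h and 24 h. Of the 9 Leydig cell markers with a probe, Star, Cyp17a1, Nr5a1 and Gata4 were above background on all arrays, whereas Cyp11a1, Hsd17b3, Hsd3b1, Hsd3b6 and the receptor gene Lhcgr were above it on none. Markers of other cell types moved with time in sham. The summed linear signal of the 5 Sertoli cell markers was 30.4 to 37.2 times the 75th percentile at 0 h and 17.4 to 22.6 times at 4 h, that of the 4 peritubular myoid markers was 28.8 to 36.3 and 46.3 to 58.4 times, and that of the 4 macrophage markers was 3.11 to 3.31 and 4.84 to 5.80 times. Single genes carried these sums. Wt1 (mean level 5.07, then 4.29) made up most of the Sertoli sum, and Acta2 (5.00, then 5.72) most of the myoid sum. Among the macrophage markers Csf1r rose from 0.50 to 2.15, but Cd68 fell from 0.83 to -0.08. Ptprc and Adgre1 were above background on 1 array each. The Leydig markers summed to 4.5 to 6.5 and 3.7 to 4.8 times. The 4 germ cell markers summed to 1.25 to 1.40 and 0.40 to 0.66 times, and the 4 endothelial markers, of which 3 were above background on no array, to 0.14 to 0.16 and 0.12 times. The part of these markers in the results was not tested.

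In initiation, eIF1, eIF1A and eIF3 load the small ribosomal subunit, eIF2 carries the initiator tRNA, and eIF2B recharges eIF2 with GTP. The eIF4F complex binds the mRNA cap and unwinds the leader, and eIF5, eIF5B and eIF6 govern GTP hydrolysis and the joining of the large subunit. Because eIF2B is the target of the integrated stress response and eIF4E that of mTOR signalling, these transcripts are often examined when cells are stressed or resume growth.

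Initiation factor transcripts rose together at 4 h, in sham and in nsPEF cells. In sham cells 36 of the 47 genes tested rose between 0 h and 4 h and 1, Eif2d, fell (limma, Benjamini-Hochberg adjusted p under 0.05 over all tested probes). Among all genes tested, 30.8% rose and 34.7% fell in the same comparison, against 76.6% of the Eif genes that rose. The median difference of the Eif genes was 0.45 on the log2 scale, against -0.04 over all genes. In these bulk samples fewer cells that express a gene and less RNA per cell cannot be told apart. In nsPEF cells 38 Eif genes rose, 80.9% of them, and Eif2d again fell, where 34.8% of all genes rose and 33.0% fell. The median was 0.45, against 0.05 over all genes. The 36 genes that rose in sham were all among the 38, and Eif2a and Eif3c were the other 2. The lowest 4 h array lay above the highest 0 h array for 33 of the 47 Eif genes in sham and for 38 in nsPEF, and for 30.4% and 32.2% of all genes. No Eif gene called in either comparison changed direction under any scaling, filter or left-out array that was tried, or with the mean of its probes. Single dimmer probes could differ. That of Eif4e1b was called in the opposite direction, at -0.76 in sham and -0.87 in nsPEF.

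**Figure D1:**
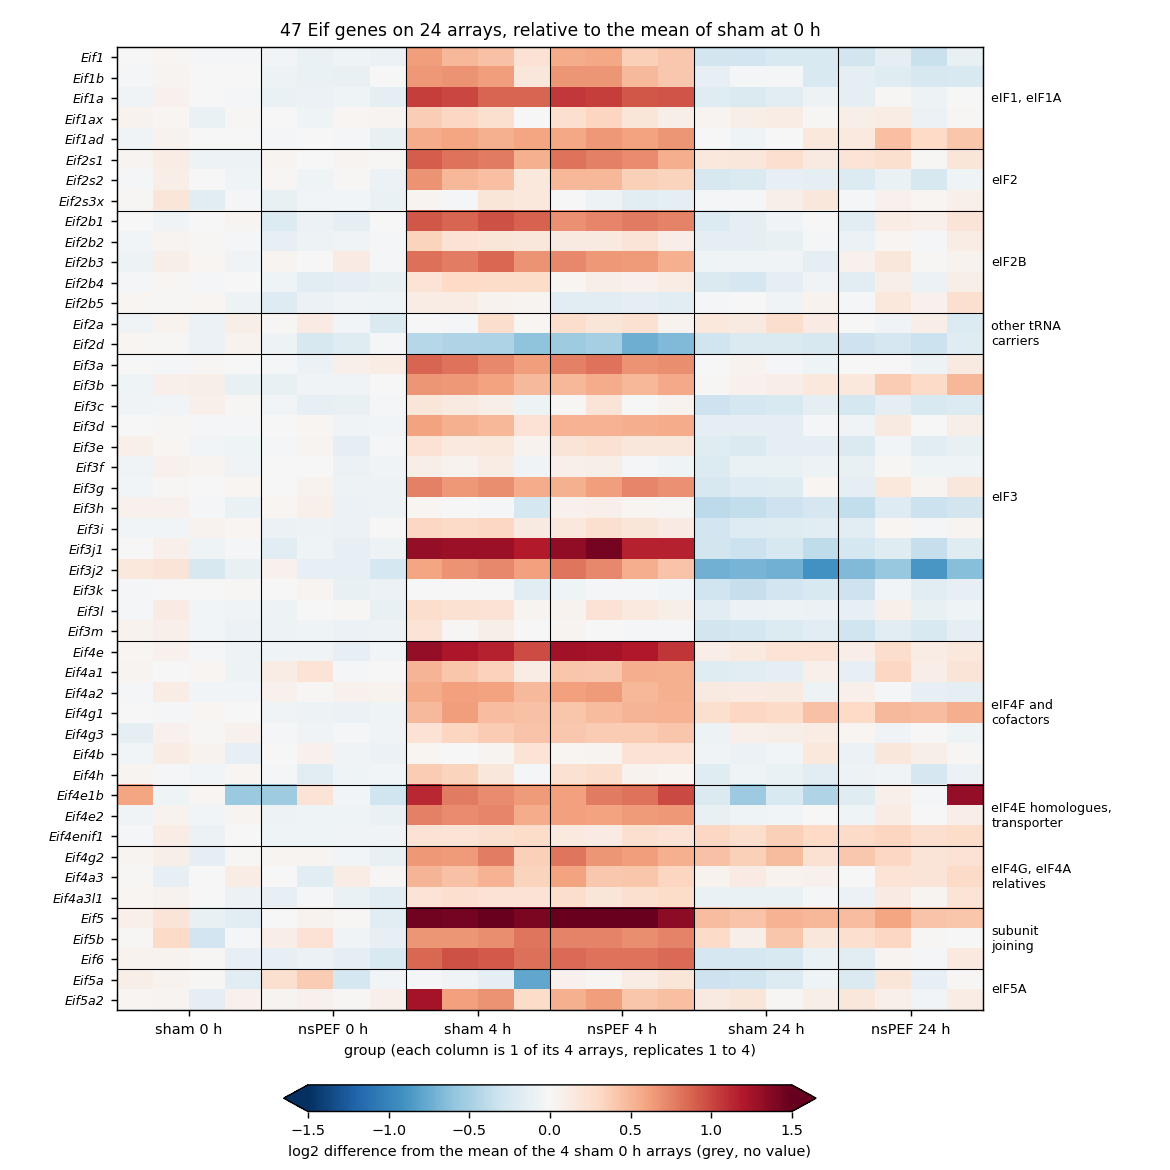
Signal of the 47 tested Eif genes (rows, grouped by factor) on the 24 arrays (columns, in 6 groups of 4), as the log2 difference from the mean of the 4 sham arrays at 0 h. Red marks a higher and blue a lower signal, and the 4 h columns of sham and of nsPEF are red for most genes while Eif2d is blue.

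The largest rise was that of Eif5, which encodes the GTPase-activating protein of eIF2. On the 4 sham arrays at 0 h its level was 4.01, 4.13, 3.82 and 3.77, and at 4 h it was 5.38, 5.37, 5.45 and 5.34. The nsPEF arrays read 3.93, 3.99, 3.95 and 3.76 at 0 h and 5.52, 5.51, 5.52 and 5.28 at 4 h. All 4 h arrays thus stood above all 0 h arrays, by 1.45 ± 0.07 (SE) in sham, a 2.74-fold rise (limma adjusted p = 8.31e-13), and by 1.55 ± 0.07 in nsPEF. The other genes of subunit joining rose as well. Eif6, whose product keeps free large subunits from joining, rose by 0.89 ± 0.06 in sham and 0.97 ± 0.06 in nsPEF, and Eif5b, the GTPase of subunit joining, by 0.71 ± 0.10 and 0.70 ± 0.10.

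Eif4e encodes the cap-binding subunit of eIF4F. Its level was 3.61, 3.64, 3.57 and 3.51 in sham at 0 h and 4.90, 4.80, 4.74 and 4.56 at 4 h. In nsPEF it was 3.52, 3.54, 3.46 and 3.54 at 0 h and 4.85, 4.83, 4.79 and 4.66 at 4 h. The groups of 0 h and 4 h did not overlap, and the rise was 1.16 ± 0.06 in sham, or 2.24-fold (limma adjusted p = 1.64e-12), and 1.26 ± 0.06 in nsPEF. A much dimmer probe of Eif4e, above background on 23 arrays, differed by 0.15 in sham and by -0.04 in nsPEF, and averaging both probes gave 0.66 (adjusted p = 0.173), so the call rests on the brighter one. Of the 7 genes of eIF4F and its cofactors, 6 rose in both treatments. The scaffold genes Eif4g1 and Eif4g3 rose by 0.50 and 0.34 in sham, the helicase genes Eif4a1 and Eif4a2 by 0.34 and 0.57, and the helicase cofactor gene Eif4h by 0.21. The dimmer probes of Eif4g3 were not called, at -0.11 and 0.55 in sham and 0.002 and 0.60 in nsPEF, so its call rests on the brightest. The other cofactor gene, Eif4b, differed by 0.07 in sham and 0.15 in nsPEF, without a call in either.

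The relatives of these subunits followed. Eif4e2, a cap-binding homologue linked to repression, rose by 0.68, and Eif4enif1, which carries eIF4E into the nucleus, rose by 0.23 in sham. Eif4g2, which drives cap-independent initiation, rose by 0.60, and Eif4a3, the helicase of the exon junction complex, by 0.45. The near-identical copy Eif4a3l1 rose by 0.22, although probes of Eif4a3 and Eif4a3l1 may share their targets.

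The eIF1 and eIF1A factors set the accuracy of start codon choice. Their genes, counted with Eif1ad, whose product has an eIF1A-like domain, rose in 5 of 5 cases in both treatments. Eif1a read 3.66, 3.78, 3.72 and 3.69 in sham at 0 h and 4.74, 4.72, 4.58 and 4.58 at 4 h. In nsPEF its level was 3.62, 3.62, 3.64 and 3.58 at 0 h and 4.77, 4.74, 4.65 and 4.66 at 4 h. These groups were fully apart, with rises of 0.94 ± 0.05 in sham, or 1.92-fold (limma adjusted p = 2.38e-12), and 1.09 ± 0.05 in nsPEF. Its X-linked copy Eif1ax rose by 0.23 in sham, and probes of this near-identical pair may share their targets. A dimmer probe of Eif1ax differed by 0.48 in sham and 0.25 in nsPEF and was not called. Eif1, Eif1b and Eif1ad rose by 0.45, 0.53 and 0.57. A second probe of Eif1 differed by 0.06 in sham and 0.17 in nsPEF and was not called.

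The 14 subunit genes of eIF3 did not move as a block. In sham 9 of 14 rose at 4 h, with a median of 0.22, and in nsPEF 10 of 14 rose, with a median of 0.23. Split by position in the complex, a grouping chosen after the values were seen, the 8 genes of the structural core (a, c, e, f, h, k, l and m) had a median of 0.08 in sham, with 3 called. Within that core Eif3a rose by 0.76, but Eif3f, Eif3h, Eif3k and Eif3m lay between -0.06 and 0.08 and none of them was called in either treatment. The b, g and i subunits, which sit beside the mRNA entry channel, rose in 3 of 3 cases, by 0.60, 0.67 and 0.26, and the cap-contacting subunit Eif3d rose by 0.46.

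The loosely bound subunit j, which helps to eject mRNA during recycling, is encoded by a pair of near-identical genes that both rose. Eif3j1 read 2.46, 2.53, 2.39 and 2.44 in sham at 0 h and 3.77, 3.74, 3.74 and 3.65 at 4 h. In nsPEF its level was 2.28, 2.39, 2.33 and 2.37 at 0 h and 3.78, 3.88, 3.61 and 3.61 at 4 h. The 4 h arrays all exceeded the 0 h arrays, by 1.27 ± 0.06 in sham, or 2.41-fold (limma adjusted p = 1.94e-13), and by 1.38 ± 0.06 in nsPEF. Eif3j2 rose by 0.65 ± 0.10 and 0.74 ± 0.10. How far the probes of the pair cross-hybridise was not tested.

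Among the tRNA carriers, Eif2s1, the eIF2 alpha subunit that stress kinases phosphorylate, rose by 0.76 ± 0.07 in sham and Eif2s2, the beta subunit, by 0.44 ± 0.08. Eif2s3x, the X-linked gamma subunit, differed by 0.09 in sham and -0.02 in nsPEF and was not called, but a dimmer second probe of it rose by 0.50 in sham and 0.95 in nsPEF. Of the 5 eIF2B genes, 4 rose in both treatments. Eif2b1 rose by 0.91 and Eif2b3 by 0.79 in sham, Eif2b2 and Eif2b4 by 0.23 and 0.26, and the catalytic subunit Eif2b5 differed by 0.08 in sham and -0.05 in nsPEF without a call.

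Eif2d delivers tRNA to the ribosome without GTP and takes part in recycling and reinitiation. It was the 1 Eif gene called lower at 4 h in the main fit. With the percentile taken over probes detected on all arrays, 4 Eif genes were called lower in sham and 2 in nsPEF. After quantile normalisation 2 were lower in sham and 4 in nsPEF. The level of Eif2d was 3.87, 3.85, 3.75 and 3.89 in sham at 0 h and 3.41, 3.39, 3.38 and 3.24 at 4 h. In nsPEF it was 3.77, 3.60, 3.66 and 3.81 at 0 h and 3.31, 3.34, 3.11 and 3.18 at 4 h. The 4 h arrays were all below the 0 h arrays, and the level fell by 0.49 ± 0.06 in sham, or 1.40-fold (limma adjusted p = 5.54e-07), and by 0.47 ± 0.06 in nsPEF. The other probes of Eif2d fell by 0.43 and 0.34 in sham. Eif2a, another carrier of initiator tRNA, differed by 0.07 in sham and rose by 0.21 in nsPEF.

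The eIF5A factors, which carry the hypusine modification and help ribosomes through difficult peptide bonds, gave a divided reading. Eif5a2 rose by 0.70 ± 0.13 in sham and 0.45 ± 0.13 in nsPEF. The brightest probe of Eif5a differed by -0.25 ± 0.15 in sham and 0.02 ± 0.15 in nsPEF, without a call, while its second probe rose by 0.43 in sham and 0.57 in nsPEF. The probes disagree, so no direction is given for Eif5a.

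**Figure D2:**
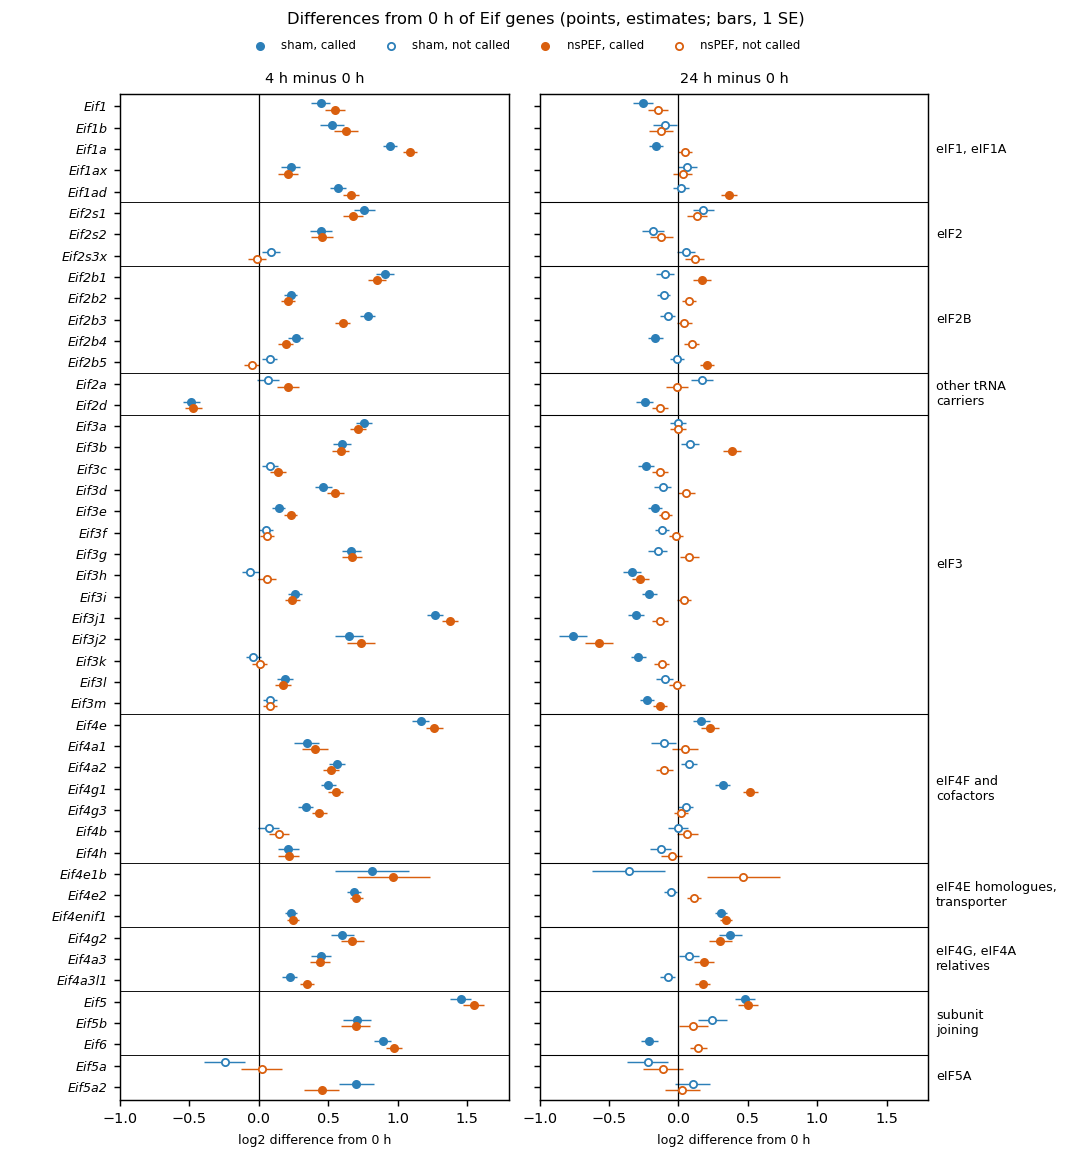
Estimated log2 differences from 0 h of the 47 tested Eif genes at 4 h (left) and 24 h (right), for sham (blue) and nsPEF (orange), with bars of 1 SE and filled points for adjusted p under 0.05. Most points at 4 h lie to the right of 0, up to 1.45 for Eif5 in sham, and at 24 h most lie within 0.40 of 0 with Eif3j2 at -0.76 in sham.

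The window around the transcription start is shown for 7 Eif genes, because translation factor mRNAs often begin with a C followed by a run of pyrimidines, the 5' terminal oligopyrimidine motif through which mTOR signalling and LARP1 govern their translation. RefSeq promoters (GRCm38.p6) matched 39 of the 49 genes. The search asked for a C within 10 bases of the annotated start, followed by at least 6 more pyrimidines, whether or not the run began further upstream. Such a stretch was found on the sense strand in 9 of the 39 genes, or 23.1%, against 14.1% of all 27025 genes with a promoter. This search was chosen after the values were seen. The median 4 h difference in sham was 0.14 in the 8 tested genes with such a run, from 0.05 in Eif3f to 1.16 in Eif4e, and 0.46 in the 30 without. The lines give 15 bases either side of the start, 5' to 3', with the stretch that the search matched in capitals. They are for 5 genes that hold it (Eif3f, Eif2s3x, Eif2b5 and Eif3l, with sham differences between 0.05 and 0.19, and Eif4e) and for the 2 with the largest rises that have no such run there (Eif5 and Eif3j1). In Eif4e, Eif2b5 and Eif2s3x pyrimidines also stand directly before the capitals. In Eif4e the run ends before the annotated start.
Eif3f, chr7:108934400-108934429, plus strand: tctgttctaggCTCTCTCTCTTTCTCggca
Eif2s3x, chrX:94212637-94212666, minus strand: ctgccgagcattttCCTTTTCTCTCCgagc
Eif2b5, chr16:20498802-20498831, plus strand: ccttcCTCTTTCTCTCCCTgcaactacacc
Eif3l, chr15:79075208-79075237, plus strand: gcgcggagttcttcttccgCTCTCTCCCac
Eif4e, chr3:138527253-138527282, plus strand: tcgccCCCCCTTCaggagcggttgtgcgat
Eif5, chr12:111538086-111538115, plus strand: gagatcgacgtgcatgcgagccaatgacaa
Eif3j1, chr2:122028565-122028594, plus strand: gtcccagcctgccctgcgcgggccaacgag

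Further upstream, the E-box CACGTG, the core site of Myc and Max, occurred in the 250 bases before the start in 9 of the 39 genes, 23.1%, against 6.86% of all genes with a promoter. It was present in the eIF4F genes Eif4e, Eif4a1 and Eif4g1 but not in Eif4a2 and Eif4g3, which also rose. The other carriers were Eif1b, Eif3f, Eif3k, Eif4h, Eif5a and Eif5a2. Of these, Eif3f, Eif3k and the brightest probe of Eif5a were not called at 4 h in either treatment. The windows of Eif4e, Eif4a1 and Eif4g1 are given with the E-box in capitals.
Eif4e, chr3:138527192-138527221, plus strand: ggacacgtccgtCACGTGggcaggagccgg
Eif4a1, chr11:69672595-69672624, minus strand: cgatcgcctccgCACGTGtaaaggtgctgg
Eif4g1, chr16:20672661-20672690, plus strand: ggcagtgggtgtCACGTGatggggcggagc
The 9 genes with the E-box had a median 4 h difference of 0.34 in sham, and the 29 tested without it one of 0.45. CCGGAAGT, the ETS core, was found in 5 of 39 genes (12.8% against 3.23%), TGATGNAA, the core of the Atf4 composite site, in Eif2s3x alone (2.56% against 3.91%), and TGACGTCA, the cAMP response element, in none against 1.77%. All 4 were searched on both strands, and such matches describe letters, not occupied sites.

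Between 4 h and 24 h the Eif genes came down. This comparison shares its 4 h arrays with the one before. In sham 40 of 47 fell and 1 rose, with a median of -0.45 against 0.01 over all genes, where 31.7% of all genes rose and 33.9% fell. In nsPEF 36 fell and 2 rose, with a median of -0.33 against -0.01, where 31.8% and 31.7% of all genes rose and fell. The genes that rose were Eif2d in both treatments, by 0.24 in sham and 0.34 in nsPEF, and Eif2b5 in nsPEF, by 0.26. Of the other probes of Eif2d, 1 rose by 0.31 in sham and 0.63 in nsPEF. The other differed by -0.03 in sham and 0.29 in nsPEF and was not called. Eif4enif1 was not called in either, at 0.07 and 0.10, and Eif4g1 fell by 0.18 in sham. These directions are relative to the bulk of each array. Scaling on the spiked-in RNAs instead moved the median of all probes from 4 h to 24 h by 0.66 in sham and 0.37 in nsPEF, and gave 24 Eif genes higher and 8 lower in sham and 15 higher and 13 lower in nsPEF, while the Eif median minus the median of all probes stayed at -0.46 in sham. Quantile normalisation gave 6 higher and 24 lower in nsPEF.

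At 24 h against 0 h fewer Eif genes were called than at 4 h, and they pointed both ways. In sham 5 of 47 were higher and 13 lower, with a median of -0.10 against -0.02 over all genes, where 15.8% of all genes were higher and 22.9% lower. In nsPEF 11 were higher and 3 lower, with a median of 0.05 against 0.04, where 24.3% and 21.5% of all genes were higher and lower. Eif4e, Eif4enif1, Eif4g1, Eif4g2 and Eif5 were higher in both treatments, and Eif3h, Eif3j2 and Eif3m lower in both. For Eif4e the dim second probe differed by -0.40 in sham and the mean of both probes turned the direction there, without a call for that probe. The split depended on the scaling. In sham it was 9 to 7 after quantile normalisation, 8 to 11 with the percentile taken over probes detected on all arrays, and 45 to 0 with the spike-in scaling, under which the median of all probes moved by 0.70. In nsPEF it was 16 to 2, 46 to 0 with the spike-in scaling, where the median of all probes moved by 0.54, and 9 to 7 in the table normalised by the authors.

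The 3 genes that stayed highest in sham at 24 h were Eif5, Eif4g2 and Eif4g1. Eif5 read 4.40, 4.37, 4.45 and 4.44 in sham, against 4.40, 4.53, 4.37 and 4.35 in nsPEF at 24 h, all above its 0 h arrays, by 0.48 ± 0.07 in sham (limma adjusted p = 3.83e-05). Eif4g2 read 3.70, 3.75, 3.51 and 3.68 in sham at 0 h and 4.10, 4.01, 4.13 and 3.88 at 24 h, a difference of 0.37 ± 0.08 with no overlap (limma adjusted p = 0.00152). In nsPEF it read 3.70, 3.70, 3.62 and 3.54 at 0 h and 4.06, 3.97, 3.85 and 3.88 at 24 h, again apart, although 1 of its other probes differed by -0.11 in sham. Eif4g1 read 5.52, 5.48, 5.55 and 5.52 in sham at 0 h and 5.76, 5.83, 5.80 and 5.96 at 24 h, higher by 0.32 ± 0.05. In nsPEF it read 5.46, 5.43, 5.43 and 5.45 at 0 h and 5.81, 6.00, 5.97 and 6.06 at 24 h, higher by 0.52 ± 0.05. The dimmest probe of Eif4g1 was higher in nsPEF by 0.47 but differed by 0.02 in sham and was not called there (limma adjusted p = 0.871), so the difference in sham is that of the 2 brighter probes, the other of which was higher by 0.15.

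The 3 genes lowest in sham at 24 h all encode eIF3 subunits, of which 8 of 14 were lower in sham, where 22.9% of all genes were lower. In nsPEF 3 of 14 were lower and 1 was higher, against 21.5% and 24.3% of all genes, so the 3 are near the share of all genes. Eif3j2 read 2.93, 2.97, 2.54 and 2.67 in sham at 0 h and 2.06, 2.08, 2.05 and 1.88 at 24 h, a fall of 0.76 ± 0.10 (limma adjusted p = 5.42e-06). In nsPEF it read 2.84, 2.66, 2.65 and 2.52 at 0 h and 2.12, 2.21, 1.90 and 2.14 at 24 h. It was below its 0 h arrays throughout, after standing above them at 4 h. Eif3h read 7.53, 7.54, 7.43 and 7.37 in sham at 0 h and 7.08, 7.09, 7.15 and 7.21 at 24 h, a fall of 0.33 ± 0.06 (limma adjusted p = 0.000314). In nsPEF it read 7.50, 7.54, 7.38 and 7.39 at 0 h and 7.10, 7.27, 7.14 and 7.20 at 24 h, and a second probe fell by 0.31 in sham. Eif3h thus fell at 24 h without having risen at 4 h. Eif3j1 read 2.18, 2.13, 2.21 and 2.07 in sham at 24 h, below its 0 h arrays by 0.31 ± 0.06, and 2.20, 2.27, 2.11 and 2.27 in nsPEF, where the difference of -0.13 ± 0.06 was not called. With the spike-in scaling Eif3h and Eif3j1 were higher instead, by 0.36 and 0.39, and the difference of Eif3j2 shrank to -0.07 and was no longer called (adjusted p = 0.59).

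Differences between nsPEF and sham were small beside those with time. At 0 h no Eif gene was called, and the differences ran from -0.17 to 0.08, where 0.101% of all genes were called. At an unadjusted p under 0.05 there were 3 of 47, against 8.43% of all genes, and none was called under any alternative. At 4 h 1 gene was called, Eif2b5, over a range from -0.23 to 0.34, where 4.01% of all genes were called. At 24 h 3 were called, all higher in nsPEF, over a range from -0.21 to 0.66, where 5.71% of all genes were called. Averaged over the 3 time points no Eif gene was called for treatment by limma (9.96% of all genes were), and none for the interaction of treatment and time (0.428% of all genes were). At an unadjusted p under 0.05 there were 6 of 47 for treatment, against 28.1% of all genes, and 15 of 47 for the interaction, against 17.8%. Other tools and settings called 0 to 6 for treatment and 0 to 13 for the interaction. For time itself 43 of 47 were called, where 84.3% of all genes were. The spike-in scaling gave 11 Eif genes higher in nsPEF at 4 h and none lower. It moved the median of all probes there by 0.19, and 29 of the 47 Eif genes lay below that median. The share of all genes called with that scaling is not given, so the 11 are not a result about the Eif genes.

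**Figure D3:**
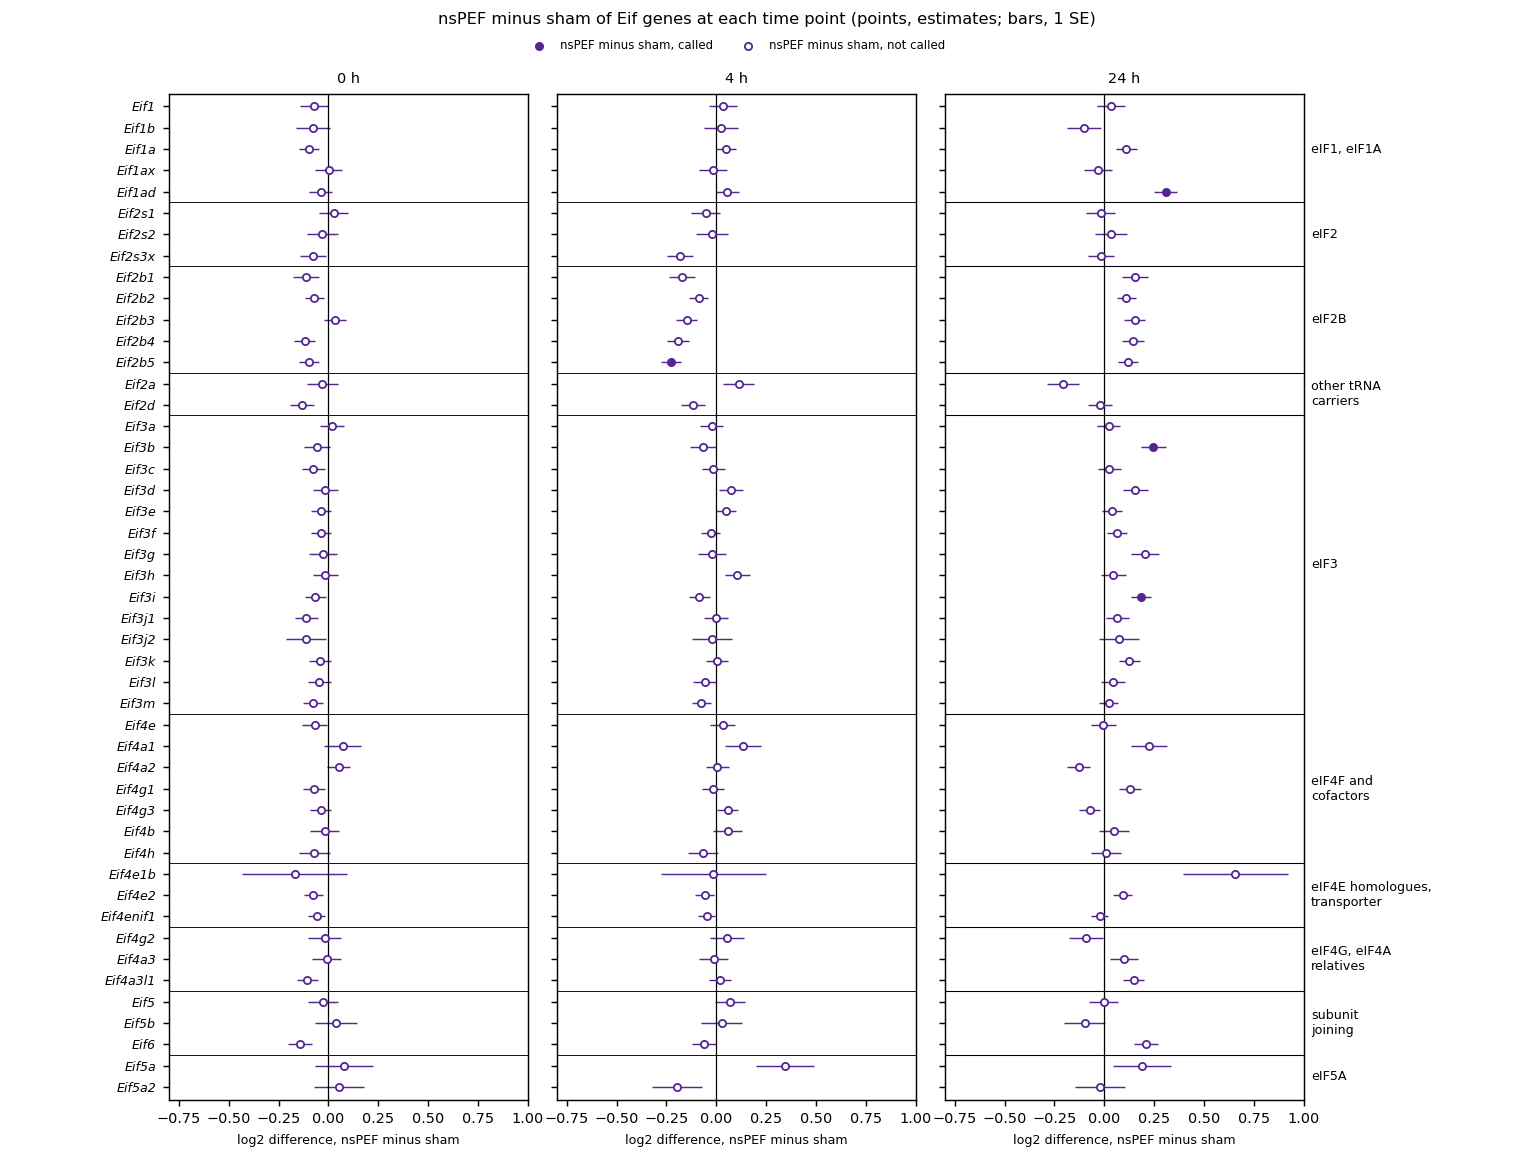
Estimated log2 differences, nsPEF minus sham, of the 47 tested Eif genes at 0 h, 4 h and 24 h, with bars of 1 SE and filled points for adjusted p under 0.05. Only 1 point is filled at 4 h (Eif2b5, at -0.23) and 3 at 24 h (Eif1ad, Eif3b and Eif3i), and the 5 eIF2B points lie left of 0 at 4 h and right of it at 24 h.

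Eif2b5, the catalytic subunit of the exchange factor that recharges eIF2, was lower in nsPEF at 4 h. Its level was 3.19, 3.20, 3.13 and 3.12 in sham, against 2.92, 2.93, 2.95 and 2.92 in nsPEF, so the groups were apart by -0.23 ± 0.05 (limma adjusted p = 0.0215). At 0 h it read 3.11, 3.10, 3.11 and 3.00 in sham, against 2.88, 3.00, 3.03 and 3.02 in nsPEF. At 24 h it read 3.05, 3.08, 3.03 and 3.13 in sham, against 3.05, 3.24, 3.14 and 3.32 in nsPEF, overlapping at both times. The call was lost without sham replicate 1 or 2 of the 4 h group, where the adjusted p reached 0.0579, and in all 4 fits that left a replicate number out of all groups (adjusted p from 0.0531 to 0.149). It was also lost in the fit of only the arrays compared (0.0868), with the percentile over detected probes (0.059), and with the spike-in scaling, where the difference was -0.04. The other eIF2B genes lay on the same side, with all 5 between -0.23 and -0.09 at 4 h (median -0.17) and between 0.11 and 0.15 at 24 h (median 0.14). Of all 47 Eif genes, 19 lay above 0 at 4 h and 33 at 24 h, against 45.0% and 52.5% of all genes. The nsPEF arrays of Eif2b1, Eif2b4 and Eif2b5 lay wholly below the sham arrays at 4 h, as they did for 8.30% of all genes. Those of Eif2b4 lay wholly below sham at 0 h already, where the share of all genes is not given. These directions are relative to the bulk of each array. With the spike-in scaling, which moved the median of all probes by 0.19 at 4 h, the 5 genes lay between -0.04 and 0.10 there. A dimmer probe of Eif2b3 differed by -0.05 at 24 h, on the other side of 0 from the brightest. None of the 5 was called for the interaction, where the adjusted p ran from 0.0645 in Eif2b5 to 0.197, so a change of the nsPEF difference with time was not established.

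At 24 h, Eif1ad, which encodes a protein with an eIF1A-like domain, was higher in nsPEF. It read 5.16, 5.09, 5.16 and 5.32 in sham, against 5.31, 5.61, 5.46 and 5.58 in nsPEF, a difference of 0.31 ± 0.06 (limma adjusted p = 0.00647) with 1 sham array slightly above the lowest nsPEF array. Its levels at the earlier times lay together, at 5.12, 5.21, 5.16 and 5.16 in sham, against 5.14, 5.17, 5.13 and 5.06 in nsPEF at 0 h, and at 5.72, 5.75, 5.70 and 5.76 and 5.74, 5.81, 5.77 and 5.82 at 4 h. The adjusted p was 0.0502 for treatment over all times and 0.0886 for the interaction. The call was lost in the fits that left replicate number 2 or 3 out of all groups (adjusted p = 0.165 and 0.0867) and in the fit of only the arrays compared (0.135).

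The RNA-binding subunit Eif3b and its partner Eif3i, a WD-repeat subunit, were the other 2. Eif3b read 6.14, 6.20, 6.23 and 6.29 in sham, against 6.29, 6.52, 6.42 and 6.63 in nsPEF at 24 h, a difference of 0.25 ± 0.06 (limma adjusted p = 0.0346). Its 0 h levels were 6.07, 6.21, 6.22 and 6.03 in sham, against 6.02, 6.08, 6.08 and 6.13 in nsPEF, and its 4 h levels were 6.79, 6.78, 6.74 and 6.62, and 6.63, 6.69, 6.63 and 6.70. At 4 h 3 sham arrays stood above the nsPEF arrays and the other below them, and at 24 h the nearest arrays of the groups overlapped. Eif3i read 4.40, 4.49, 4.51 and 4.51 in sham, against 4.52, 4.72, 4.67 and 4.73 in nsPEF at 24 h, with no overlap and a difference of 0.18 ± 0.05 (limma adjusted p = 0.0476). At 0 h it read 4.64, 4.65, 4.74 and 4.72 in sham, against 4.60, 4.61, 4.60 and 4.68 in nsPEF, and at 4 h 5.00, 4.98, 4.99 and 4.83, and 4.85, 4.92, 4.87 and 4.81. These calls were lost more often. That of Eif3b was lost without sham 24 h replicate 1, 2 or 3 or nsPEF 24 h replicate 2 or 4 (adjusted p up to 0.124) and in 3 of 4 fits without a replicate number (up to 0.298), and that of Eif3i was lost in 21 of 24 fits that left out 1 array (adjusted p up to 0.15). Replicate 1 of nsPEF at 24 h was the lowest of its 4 arrays in 28 of the 47 genes, and without it 12 Eif genes were called at 24 h and 8 for the interaction. Without replicate 4 of sham at 4 h, the lowest of its group in 36 of 47, 5 were called at 24 h. The shares of all genes called in these fits are not given, so the counts are not results about the Eif genes.

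**Figure D4:**
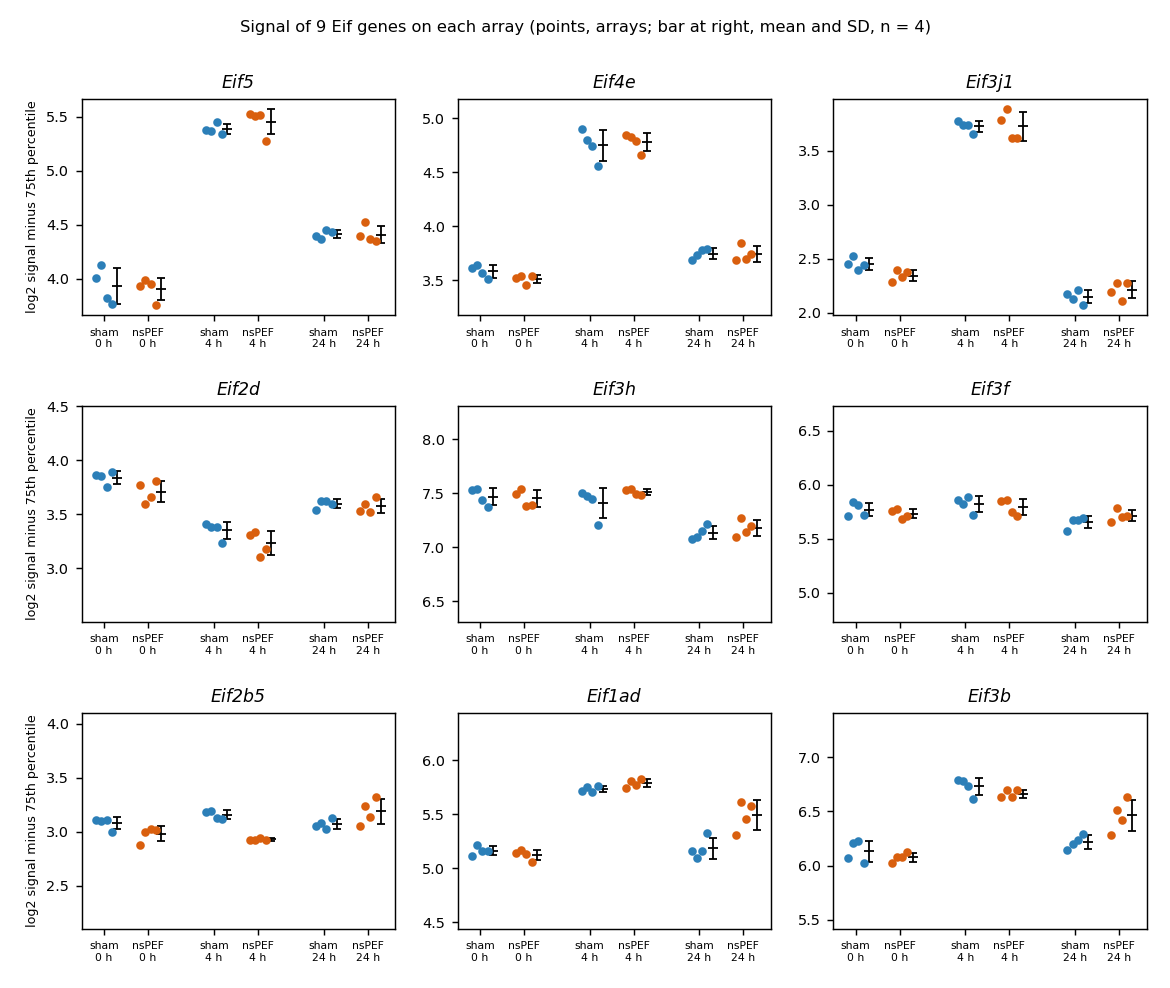
Level of 9 Eif genes on each of the 24 arrays (log2 signal minus the 75th percentile of the array), with the mean and SD of 4 arrays beside each group, sham in blue and nsPEF in orange. Eif5, Eif4e and Eif3j1 rise at 4 h in both treatments, Eif2d falls, Eif3f stays near its 0 h level, Eif3h falls at 24 h, and Eif2b5 (4 h), Eif1ad and Eif3b (24 h) show the called differences between treatments.

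Second probes called for nsPEF against sham belonged to Eif2s3x at 4 h (0.67, adjusted p = 0.0394), Eif4g1 at 4 h (-0.32, adjusted p = 0.0403) and Eif6 at 24 h (0.21, adjusted p = 0.0422), all by limma. The brightest probe of Eif2s3x differed by -0.18 in the opposite direction and that of Eif4g1 by -0.01, neither called. That of Eif6 differed by 0.21, close to its second probe, with an adjusted p of 0.0506.

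The remaining 3 genes were dim. Eif4e1b, a cap-binding homologue of germ cells, read -2.89, -3.55, -3.46 and -4.04 in sham, against -4.02, -3.28, -3.53 and -3.79 in nsPEF at 0 h. At 4 h it read -2.36, -2.70, -2.77 and -2.85 in sham, against -2.87, -2.71, -2.67 and -2.50 in nsPEF, and was called higher by 0.81 ± 0.26 in sham. At 24 h it read -3.70, -4.03, -3.71 and -3.94 in sham, against -3.67, -3.41, -3.50 and -2.17 in nsPEF, where 1 array stood high. Its other tested probe fell by 0.76 at 4 h in sham, so the probes disagree. Eif4e3 was above background on no array. The same held for the brighter probe of Eif2s3y, the Y-linked gamma subunit, and its other probe was above background on 1 array. The Y-linked genes Ddx3y and Uty, looked up after this was seen, were above background on all 24 arrays.

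Other genes of the pathway did not share 1 direction, and their counts at 4 h in sham stand beside the 30.8% of all genes that rose and the 34.7% that fell. All 6 genes of the eIF2 kinases and phosphatase subunits changed at 4 h in sham, 2 higher and 4 lower. Ppp1r15a, which directs dephosphorylation of eIF2 alpha, fell by 2.28 ± 0.05 (limma adjusted p = 2.36e-18), and the kinase genes Eif2ak2 and Eif2ak3 fell by 1.50 and 1.07. Eif2ak2 was lower again in nsPEF than in sham at 4 h, by -0.30 ± 0.06 (limma adjusted p = 0.0143), where 4.01% of all genes were called. At 24 h Eif2ak4 differed by -0.20 ± 0.04 (limma adjusted p = 0.0159), where 5.71% were. For treatment over the 3 time points, calls were Eif2ak2 (-0.17), Eif2ak4 (-0.10), Ppp1r15a (0.11) and the scanning factor gene Dhx29 (-0.13), where 9.96% of all genes were called. Of 12 regulators of eIF4F and poly(A)-binding proteins, 4 rose and 4 fell in sham, close to the shares of all genes. Larp1, which binds mRNAs with the terminal pyrimidine motif, rose by 1.17, Pabpc4 rose by 0.74, and Pdcd4, an inhibitor of the eIF4A helicase, fell by 0.76. Of 7 scanning, reinitiation and recycling factors 6 rose, among them Denr, Bzw1 and the helicase gene Ddx3x by 0.95, 0.92 and 0.76. Both hypusine enzymes of eIF5A, Dohh and Dhps, rose by 0.65 and 0.44, and so did both release factors, Etf1 by 1.30 and Gspt1 by 0.53. Of 7 tested genes with an Eef symbol, not all of which encode elongation factors, 2 rose and 2 fell. Eef1e1, which is not itself an elongation factor, rose by 1.59. The kinase gene Eef2k fell by 0.40 and the elongation factor gene Eef1a1 by 0.38. Of 2 mitochondrial initiation factors Mtif3 rose by 0.35.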

How the data were processed

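The deposited scanner files hold background-subtracted processed signal intensity from Feature Extraction 12.0 for 24 one-colour arrays. The authors also deposited a table of log2 values shifted to the 75th percentile of each array, which served as an alternative. Here log2 of the processed signal minus the 75th percentile of each array was used, control spots and spots marked as outliers being left out. Of 56605 probes, 61.1% had a symbol, found through RefSeq transcript accessions, and a gene was represented by its probe of highest mean. The 37684 probes that passed the filter were fitted with limma 3.58.1 in R 4.3.3, with a mean for each of 6 groups. P-values were adjusted by Benjamini-Hochberg over these probes, with a threshold of 0.05, and 12 comparisons were made. Shares over all genes are of 16806. The study's two-way analysis of variance, other scalings, filters and probe rules, and left-out arrays were run as alternatives. The fit was tested on simulated data. The sources name 4 biological replicates a group, and p-values measure the spread between these samples. The number of arrays limits the precision. Genes with every array given were those with the largest calls with time in sham (up to 4 each way at 4 h, of which 4 rose and 1 fell, and 3 each way at 24 h), all called between treatments, and dim ones. The members and lists were chosen with earlier results of these data known.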

Additional observations from a re-analysis of the deposited data

Results flagged for a closer look

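The genes given with every array, without the dim Eif4e1b, which was not checked, made 78 groups of 4 arrays. Of these groups 6 held 1 array far from the other 3, and chance gives about 1 in 20. Replicate 4 of sham at 4 h was low for Eif2d, at 3.24 against 3.38 to 3.41, and for Eif3i, at 4.82 against 4.98 to 5.00. Replicate 4 was also the one that stood apart for Eif5 in nsPEF at 4 h (5.28 against 5.51 to 5.52), for Eif3j2 in sham at 24 h (1.88 against 2.05 to 2.08) and for Eif2b5 in sham at 0 h (3.00 against 3.10 to 3.11). Eif2b5 in nsPEF at 4 h had its replicate 3 at 2.95 against 2.92 to 2.93 on the others.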

How the results depend on the processing

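Counts of Eif genes called between 0 h and 4 h, between 4 h and 24 h and for time stayed within 1.5 times under all alternatives. These counts ignore direction. Between 4 h and 24 h, spike-in scaling turned the direction of 27 of the 41 called genes in sham and 16 of 38 in nsPEF. Quantile normalisation turned 3 and 4, and the mean of probes 1 and 1. With spike-in scaling 45 genes were called in sham and 46 in nsPEF at 24 h against 0 h, 11 for nsPEF against sham at 4 h and 1 at 24 h, 6 for treatment and 2 for the interaction. Of the 18 genes called in sham at 24 h against 0 h, 12 turned direction with that scaling, among them Eif3h and Eif3j1, to 0.36 and 0.39. In nsPEF 2 of 14 turned. With array quality weights 29 were called in sham at 24 h against 0 h, 2 and 16 for nsPEF against sham at 4 h and 24 h, 3 for treatment and 13 for the interaction. At 4 h nsPEF against sham gave 0 with the percentile over detected probes or only the arrays compared, 4 with no filter, and 2 with normexp, a floor, marked spots kept, analysis of variance, 1 value per gene, the deposited values or centring by row and signal. At 24 h it gave 0 with only the arrays compared, 1 with normexp, marked spots or the deposited values, 5 with the percentile over detected probes or the mean of probes, and 6 with no filter. Treatment gave 1 with a floor, analysis of variance, 1 value per gene or the mean of probes, 2 with detected probes or marked spots, and 3 with no filter or the deposited values. The interaction gave 1 with a floor and 2 with analysis of variance, 1 value per gene or the mean of probes. Leaving out 1 array, or 1 replicate number from all groups, gave 9 to 17 for nsPEF at 24 h against 0 h, 0 to 2 and 0 to 12 for nsPEF against sham at 4 h and 24 h, 0 to 2 for treatment and 0 to 8 for the interaction. The cause of these shifts was not tested. Shares of all genes called under these alternatives are not given, so the counts show only how far the Eif calls depend on processing. Deviations of same-numbered arrays had a median r of 0.0185 over 60 pairs, none over 0.1, against -0.0061 for other pairs. Of 24 arrays, 12 correlated best with their own number. The paper states that tests of a biological replicate were run in parallel on the same cell suspension. Array numbers may thus mark pairs of sham and nsPEF, which these correlations cannot decide. The main fit did not pair them. The replicate block gave 2 for nsPEF against sham at 4 h, 1 for treatment, and lost Eif3i at 24 h (0.18), with 37 for sham at 4 h against 0 h. Dim probes limit Eif4e1b, Eif4e3 and Eif2s3y.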
